A study of Mus musculus with 9 samples.

Results

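The comparison described here is the step from day 2 to day 4 of differentiation in mouse embryonic stem cells (ESCs) that lack Dnmt1. It uses 2 of the 9 RNA-seq libraries of the series. Its members are all 15074 genes and all 38385 repeat copies of the expression tables, with none chosen here by their values. None of the deposited values is 0, so a gene or copy at 0 in any of the 9 libraries is not among them. No count, share or list median below covers such entries. The cells, called 1KO, are Dnmt1-/- ESCs made from the J1 line. Wild-type J1 cells (WT) and 1KO cells that carry a transgene for DNMT1 C1229S, a form with a changed catalytic cysteine (1KO+1CI), were sampled at the same days and serve for comparison. The transgene is driven by the CAG promoter and linked through an IRES to zeocin resistance, and the cells are transgenic clones, without a statement in the labels of how many the libraries stand for. Cells of all 3 lines were freed from mitomycin C-treated mouse embryonic fibroblast feeders by a short plating step, kept as embryoid bodies without LIF for 1 day, and then grown attached to the dish for 3 days, a course that the labels call epiblast-like cell differentiation. RNA was selected with oligo(dT). Each line and day has 1 library, so no value below has a replicate error and the step within 1KO could not be tested. A fit that pools the lines would test changes that the lines share, and was not made.

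Embryonic stem cells resemble the naive epiblast of the embryo before implantation. On losing LIF they leave the naive state, pass through a formative stage that resembles the epiblast just after implantation, and can then turn on genes of the primitive streak, the site where mesoderm and endoderm arise under Nodal, Wnt and FGF signals. DNMT1 copies DNA methylation to the new strand at replication, DNMT3A and DNMT3B set it anew with DNMT3L as a cofactor, and methylation is a known repressor of IAP retroviruses, imprinted alleles and germline genes.

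Values are FPKM, a unit scaled for transcript length and for library depth. A change is given as the difference of log2(FPKM + 1) at day 4 minus day 2, a scale that understates the change of genes near 1 FPKM. A gene or copy is said to have risen or fallen where this difference passed 1 or -1, which is 2-fold on that scale. Recovered from the steps of the low values, library depth lay between 20.1 M and 28.0 M reads in the 9 libraries. Where a count of reads is printed, 1 step is taken as 1 read, and its exact 95% binomial interval covers counting error only. Dnmt1 (chr9:20907209-20959888 of GRCm38, minus strand) was at 13.7, 17.4 and 12.3 FPKM in 1KO at days 0, 2 and 4. In WT it was at 74.0, 80.4 and 48.5 FPKM, and in 1KO+1CI at 315, 129 and 158 FPKM, so 1KO was the lowest line at each day. The table has 1 value per gene, and RNA from outside the deleted part of Dnmt1 cannot be told apart in it.

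From day 2 to day 4, 587 of 15074 genes rose in 1KO (3.89%) and 548 fell (3.64%). The median difference over all genes was 0.01. In WT 577 genes rose (3.83%) and 647 fell (4.29%), and in 1KO+1CI 546 rose (3.62%) and 468 fell (3.1%). By the scale itself, a gene can pass only if it is above 1 FPKM at one of the days. Of the 12484 genes at 1 FPKM or more at either day in 1KO, 4.7% rose and 4.39% fell. Rescaled to TPM, a common sum over the gene table, 756 genes rose and 898 fell, so the balance of rises and falls turned with the scaling. Since the libraries are of whole cultures, fewer cells of a type and less RNA per cell cannot be told apart in any value below.

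The largest rise in 1KO was that of Fgf8, a secreted FGF that streak cells need to move away from the streak. Fgf8 (chr19:45736798-45742915, minus strand) went from 1.03 to 84.5 FPKM in 1KO, a difference of 5.39. WT cells reached 8.51 FPKM from 0.038, and 1KO+1CI cells 63.0 FPKM from 1.96. The next was T, also called Brachyury, the T-box factor that marks the streak and nascent mesoderm. T (chr17:8434423-8442496, plus strand) went from 0.49 to 29.2 FPKM in 1KO, or from 21 to 1351 reads, a ratio of 59.7 (38.9 to 96.8). In WT it reached 2.07 FPKM from 0.282, and in 1KO+1CI 27.2 FPKM from 0.438. Both genes thus rose in all 3 lines, and at day 4 both Dnmt1-null lines were above WT.

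The proximal promoters of the streak genes with the largest and the smallest rise among those that rose and have a promoter entry, T and Lhx1, are printed to show what letters these windows hold. Each is 300 bases, from 250 before to 50 after the RefSeq start in GRCm38.p6, read 5′ to 3′ on the gene's strand. Capitals mark matches to TCF/LEF (CTTTGAA or CTTTGAT), T-box (AGGTGTG), POU octamer (TTTGCAT), ESRRB (AAGGTCA), KLF/SP (GGGCGGG), E-box (CACGTG) or E2F6 (GGCGGGA) letters on either strand. The T window is chr17:8434173-8434472 on the plus strand, and the Lhx1 window is chr11:84525485-84525784 on the minus strand.
T: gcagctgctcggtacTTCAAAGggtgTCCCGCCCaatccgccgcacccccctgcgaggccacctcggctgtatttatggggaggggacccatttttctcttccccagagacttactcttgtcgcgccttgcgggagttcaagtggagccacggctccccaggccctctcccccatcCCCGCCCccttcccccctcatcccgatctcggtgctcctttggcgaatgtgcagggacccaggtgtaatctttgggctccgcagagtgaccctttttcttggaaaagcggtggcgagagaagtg
Lhx1: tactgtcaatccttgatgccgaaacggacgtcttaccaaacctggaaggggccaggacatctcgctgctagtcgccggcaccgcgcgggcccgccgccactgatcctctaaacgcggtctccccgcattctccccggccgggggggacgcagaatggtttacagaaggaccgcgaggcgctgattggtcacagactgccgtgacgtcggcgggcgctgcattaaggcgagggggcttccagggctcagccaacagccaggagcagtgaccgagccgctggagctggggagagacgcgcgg
The T window holds CTTTGAA at -235 from the start, GGGCGGG at -223 and -74, and GGCGGGA at -224, all on the opposite strand, with the GGCGGGA match overlapping the upstream GGGCGGG match. The Lhx1 window holds none of these letters. Of 32851 promoter windows of the same length, 5.14% hold CTTTGAA, 3.73% CTTTGAT, 5.84% AGGTGTG, 4.63% TTTGCAT, 4.72% AAGGTCA, 25.6% GGGCGGG, 7.15% CACGTG and 11.3% GGCGGGA. Over the windows of 11638 measured genes the shares for the letters found in T were 3.6% for CTTTGAA, 47.3% for GGGCGGG and 20.9% for GGCGGGA. A match describes letters only.

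Of 20 listed primitive streak genes 14 were measured, 10 rose in 1KO and none fell. The median difference over the 14 was 2.19 in 1KO, beside 0.01 over all genes, 0.62 in WT and 2.13 in 1KO+1CI. This and the list medians that follow are over every measured member. Counts of list members that rose or fell in 1KO stand beside 3.89% and 3.64% of all genes. In WT 6 of the measured members rose, and in 1KO+1CI 10. Among the transcription factors, Eomes, which specifies endoderm and early mesoderm, went from 2.98 to 29.9 FPKM in 1KO (difference 2.96) and from 2.81 to 8.51 FPKM in WT. Mixl1, a homeobox factor of the streak, went from 0.54 to 6.50 FPKM in 1KO (2.28) and from 0.233 to 0.581 FPKM in WT. Evx1, a homeobox factor of the posterior streak, had a difference of 1.56 in 1KO and 0.05 in WT. All 3 factors were further apart between the days in the Dnmt1-null lines than in WT. Lhx1, a LIM homeobox factor of the node and head mesoderm, reached 1.56 FPKM in 1KO and 0.252 FPKM in WT, with a difference of 1.23 in 1KO. Snai1, which represses E-cadherin in streak cells, had a difference of 0.93 in 1KO and did not pass.

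Of the secreted proteins on the list, Wnt3, Wnt8a, Fst and Fgf8 passed and Nodal did not. Wnt3, the ligand that starts streak formation, went from 60 to 595 reads in 1KO, a ratio of 9.20 (7.05 to 12.2), and from 0.917 to 8.44 FPKM. Wnt8a, a further streak ligand, went from 5.21 to 25.5 FPKM (2.09), and Fst, a secreted activin inhibitor, from 8.88 to 51.1 FPKM (2.40). Sp5 (chr2:70474923-70477729), a direct target of Wnt signalling, went from 25 to 741 reads, a ratio of 27.5 (18.5 to 42.8), with a difference of 3.41 in 1KO, 0.89 in WT and 3.84 in 1KO+1CI. Nodal itself went from 40.1 to 76.0 FPKM, a difference of 0.90, and Gsc2 (0.37) and Mesp2 (-0.33) did not pass either.

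**Figure D1:**
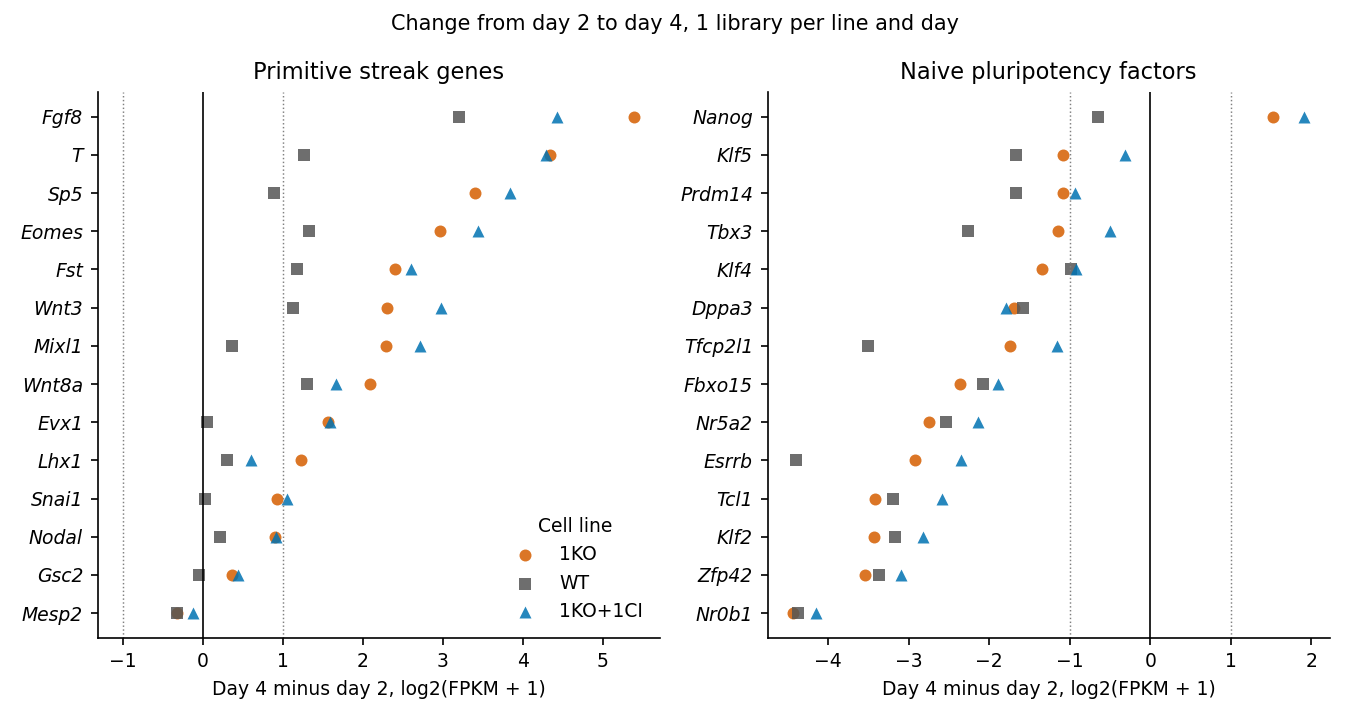
Difference of log2(FPKM + 1), day 4 minus day 2, of the measured primitive streak genes (left) and naive pluripotency factors (right) in 1KO (circles), WT (squares) and 1KO+1CI (triangles), with 1 library per line and day and dotted lines at 1 and -1. The streak genes reach 5.39 for Fgf8 in 1KO, 13 of the 14 naive factors lie below -1 in 1KO, and Nanog lies at 1.53 in 1KO and -0.65 in WT.

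In the Wnt pathway 10 of 39 measured genes rose and 1 fell, and the list's median was 0.44 in 1KO, 0.37 in WT and 0.48 in 1KO+1CI. The risers were Wnt3, Wnt8a and Sp5 of the streak list and 7 more. Wls, which carries Wnt proteins to the cell surface, went from 2.31 to 13.6 FPKM in 1KO (2.14). Axin2, a feedback inhibitor that Wnt signalling induces, went from 3.17 to 11.7 FPKM in 1KO (1.61) and from 3.20 to 5.83 FPKM in WT (0.70). Among the Frizzled receptors, Fzd2 (1.48), Fzd6 (1.31) and Fzd10 (1.25) rose in 1KO. The ligand Wnt5b (1.70) and Sfrp2, a secreted Wnt binder (1.37), rose as well. The member that fell was Notum, which inactivates Wnt proteins, from 17.6 to 1.34 FPKM in 1KO (-2.99) and from 27.8 to 1.58 FPKM in WT (-3.48). Ctnnb1, the gene of beta-catenin, had a difference of 0.04.

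In the Nodal pathway 3 of 20 measured genes rose and none fell, and the list's median was 0.39 in 1KO, beside 0.28 in WT. Tdgf1, the co-receptor Cripto, went from 189 to 414 FPKM in 1KO (1.13), and from 175 to 364 FPKM in WT (1.05). Pmepa1, a SMAD-induced feedback gene, had a difference of 1.05 in 1KO. Lefty2, a secreted Nodal inhibitor, went from 63.5 to 129 FPKM in 1KO (1.01) and from 52.7 to 36.4 FPKM in WT (-0.52). Lefty1, a further Nodal inhibitor, went from 53.4 to 81.1 FPKM in 1KO (0.59) and from 41.1 to 126 FPKM in WT (1.59). At day 4 Lefty2 was thus the higher of the pair in 1KO and Lefty1 in WT.

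Of 25 FGF-ERK genes 3 rose and 3 fell in 1KO, with a median of -0.21. Besides Fgf8 and Fgf5, the riser was Il17rd, a membrane inhibitor of FGF receptors, from 10.2 to 30.5 FPKM (1.49). Fgf4, the FGF ligand of naive cells, fell from 42.7 to 6.11 FPKM in 1KO (-2.62) and from 54.5 to 21.4 FPKM in WT (-1.31). Spry4, a feedback inhibitor of the pathway, fell from 36.7 to 9.26 FPKM (-1.88), and Egr1, an immediate early factor, fell by 1.31 on the log2 scale. Of 18 BMP pathway genes none rose, and Id1, a BMP target, fell from 58.9 to 21.3 FPKM in 1KO (-1.43). The ligand Bmp4 went from 8.84 to 4.90 FPKM in 1KO (-0.74) and from 18.5 to 2.53 FPKM in WT (-2.47).

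All 14 listed naive pluripotency factors were measured, and 13 fell and 1 rose in 1KO. Their median difference was -2.05 in 1KO, -2.40 in WT and -1.84 in 1KO+1CI. In WT 12 fell and in 1KO+1CI 9. The deepest fall of any gene in 1KO was that of Nr0b1 (chrX:86191764-86195947), an orphan nuclear receptor of the naive network, from 89.2 to 3.17 FPKM (-4.43). In WT Nr0b1 went from 105 to 4.07 FPKM (-4.38), so the lines were alike in size. Zfp42, the zinc finger factor Rex1, went from 172 to 13.9 FPKM in 1KO (-3.54), Klf2, a Kruppel-like factor, from 76.9 to 6.20 FPKM (-3.43), and Tcl1, an AKT cofactor, from 11.8 to 0.198 FPKM (-3.42). Esrrb, an orphan nuclear receptor, fell by 2.92 on the log2 scale in 1KO and by 4.40 in WT. Tfcp2l1, a factor downstream of LIF, had a difference of -1.74 in 1KO and -3.50 in WT, and Tbx3 -1.15 in 1KO and -2.27 in WT. For these 3 genes WT had the deeper fall. Klf5 (-1.09) and Prdm14 (-1.09) were just past -1 in 1KO.

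Nanog (chr6:122707489-122714633), the homeobox factor of the naive network that is also expressed in the posterior epiblast, was the member that rose. In 1KO it was at 205, 58.8 and 171 FPKM at days 0, 2 and 4, a difference of 1.53 from day 2 to day 4. In 1KO+1CI it went from 40.9 to 157 FPKM (1.91), and in WT from 89.5 to 56.8 FPKM (-0.65). Nanog at day 2 was lower, and at day 4 higher, in both Dnmt1-null lines than in WT. The promoters of Nanog, the highest member of the naive list, and Nr0b1, the lowest, are printed in the same way. The Nanog window, the first of 2 RefSeq entries, is chr6:122707239-122707538 and that of Nr0b1 is chrX:86191525-86191824, both on the plus strand.
Nanog: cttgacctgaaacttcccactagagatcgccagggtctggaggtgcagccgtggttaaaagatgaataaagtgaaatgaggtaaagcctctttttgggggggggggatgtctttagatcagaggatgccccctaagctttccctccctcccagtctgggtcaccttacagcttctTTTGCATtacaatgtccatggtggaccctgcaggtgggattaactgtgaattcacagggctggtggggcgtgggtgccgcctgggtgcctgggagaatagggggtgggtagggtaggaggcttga
Nr0b1: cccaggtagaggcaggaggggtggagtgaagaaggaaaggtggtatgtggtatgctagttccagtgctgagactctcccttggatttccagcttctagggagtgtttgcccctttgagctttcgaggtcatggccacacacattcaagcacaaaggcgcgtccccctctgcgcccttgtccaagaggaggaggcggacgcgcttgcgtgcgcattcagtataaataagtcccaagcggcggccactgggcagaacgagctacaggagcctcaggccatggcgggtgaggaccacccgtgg
The Nanog window holds the POU octamer letters TTTGCAT at -75 from the start, on the strand printed, and the Nr0b1 window holds none of the letters searched.

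Of 12 genes of the core pluripotency list 1 rose (Tdgf1) and 5 fell in 1KO, the list's median being -0.46 in 1KO, against -0.19 in WT. Pou5f1, which encodes OCT4, was at 759 FPKM at day 2 and 745 FPKM at day 4 in 1KO (-0.03). Sox2 went from 164 to 59.1 FPKM in 1KO (-1.46) and from 199 to 83.5 FPKM in WT (-1.24). The other falls were Dppa2 (-1.84) and Dppa4 (-1.67), paired chromatin factors of pluripotent cells, Utf1 (-1.18, against -0.07 in WT) and Dppa5a (-1.05).

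Of 16 formative epiblast genes, 2 rose and 2 fell in 1KO, while 8 rose and none fell in WT. The median was 0.08 in 1KO, or -0.01 when values were rescaled to TPM, beside 0.96 in WT and -0.34 in 1KO+1CI. Fgf5, the classic marker of the early postimplantation epiblast, went from 14.7 to 86.4 FPKM in 1KO (2.48) and from 2.52 to 48.3 FPKM in WT (3.81). Sox3 went from 9.11 to 24.5 FPKM in 1KO (1.33) and from 2.64 to 29.2 FPKM in WT (3.05). Both genes rose in both lines, from a higher level at day 2 in 1KO. Pou3f1, the POU factor Oct6, went from 67.5 to 42.1 FPKM in 1KO (-0.67) and from 21.7 to 63.0 FPKM in WT (1.49). Lef1, a transcription factor of the Wnt pathway, went from 23.5 to 14.1 FPKM in 1KO (-0.70) and from 3.73 to 11.2 FPKM in WT (1.37). For Pou3f1 and Lef1 the lines differed in direction, and 1KO at day 2 was above WT at day 4. Otx2, a homeobox factor of the epiblast and forebrain, had a difference of 0.49 in 1KO and 0.89 in WT.

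Among 9 DNA methyltransferase and UHRF genes none rose and 2 fell in 1KO. Dnmt3a (chr12:3806007-3914443) was at 20.6, 51.8 and 18.3 FPKM at days 0, 2 and 4 in 1KO, a difference of -1.45 from day 2. In 1KO+1CI the difference was -1.78, whereas in WT Dnmt3a went from 32.8 to 39.7 FPKM (0.27). Dnmt3b went from 224 to 328 FPKM in 1KO (0.55), from 220 to 226 FPKM in 1KO+1CI (0.04), and from 115 to 390 FPKM in WT (1.76). At day 2 both genes were thus higher, and at day 4 lower, in both Dnmt1-null lines than in WT. Dnmt3l, the cofactor, fell from 286 to 41.0 FPKM in 1KO (-2.77), and Uhrf1, which brings DNMT1 to hemimethylated DNA, had a difference of -0.48. In the list of TET and base excision genes, 2 of 11 fell. They were the 5-methylcytosine oxidases Tet1, from 34.3 to 7.79 FPKM (-2.00), and Tet2, from 5.70 to 0.658 FPKM (-2.01). In WT they also fell, by 1.81 and by 2.57 on the log2 scale.

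**Figure D2:**
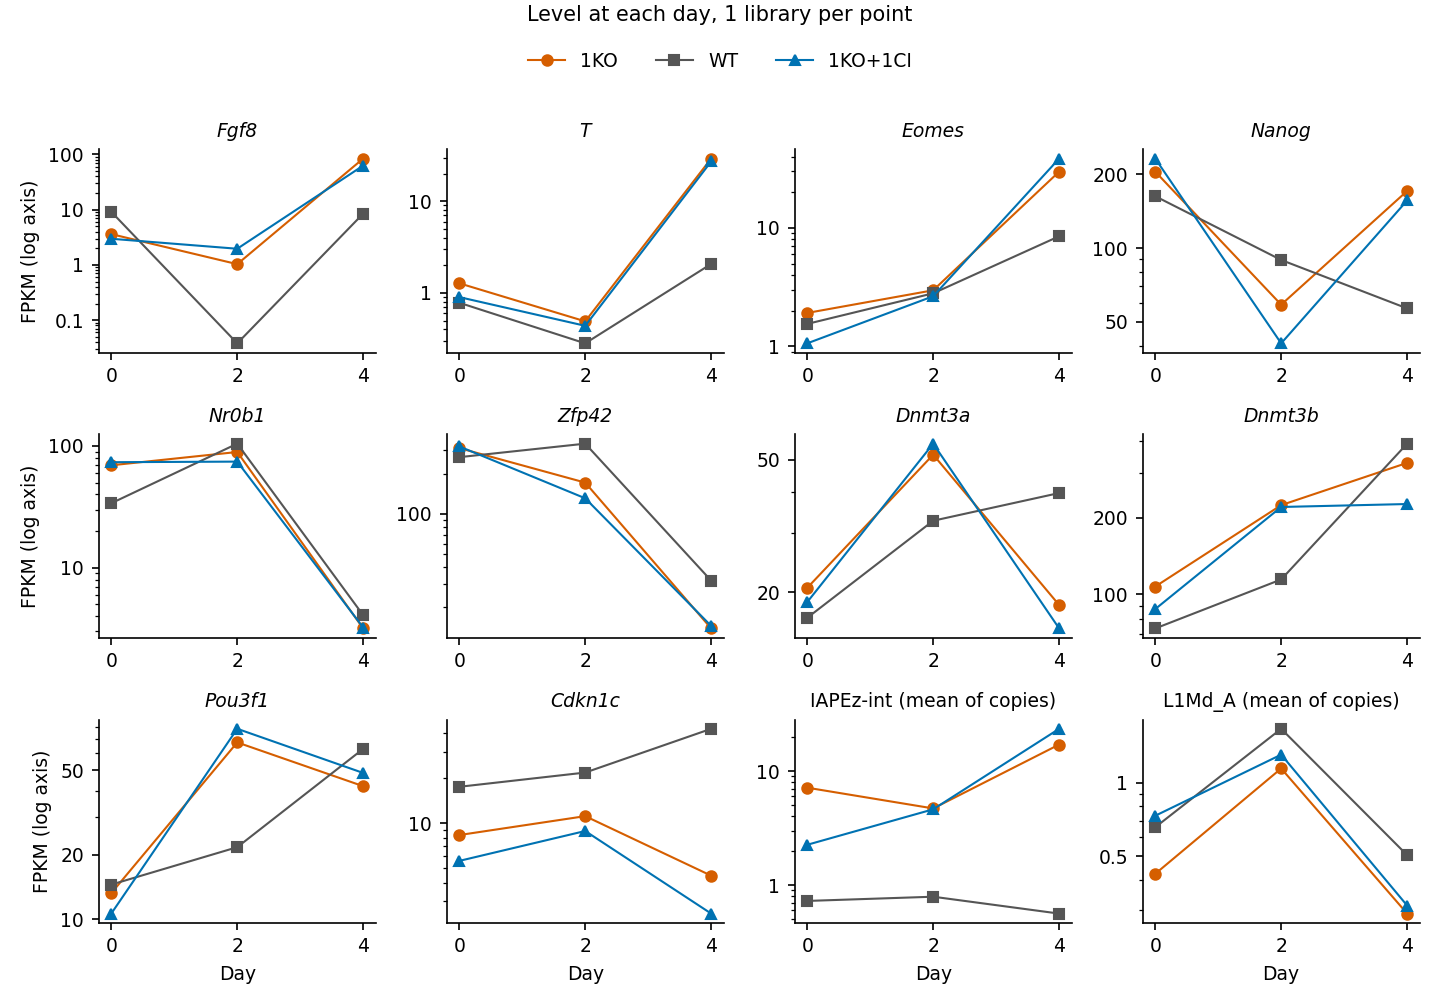
FPKM on a log axis at days 0, 2 and 4 in 1KO (circles), WT (squares) and 1KO+1CI (triangles) for 10 genes and the mean of 2 repeat families, with 1 library per point. Dnmt3a in 1KO peaks at 51.8 FPKM at day 2, Nanog in 1KO dips to 58.8 FPKM at day 2, and IAPEz-int in 1KO goes from 4.70 to 17.1 FPKM while WT stays under 1 FPKM.

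Later mesoderm genes were mostly low. Of 22 listed, 13 were measured and 7 were at 1 FPKM or more in 1KO, and 1 rose, Dll3 (1.08). Dll1, a Notch ligand, fell from 464 to 56 reads in 1KO, from 6.45 to 0.723 FPKM (-2.11), against -0.27 in WT. Etv2, an ETS factor of blood and vessel precursors, went from 4.06 to 2.50 FPKM in 1KO (-0.53) and from 0.748 to 6.84 FPKM in WT (2.16), and was among the 5 genes lowest in 1KO relative to WT. Of 6 measured definitive endoderm genes 2 rose in 1KO. Foxa2, a forkhead factor of endoderm and node, went from 0.045 to 2.42 FPKM (1.71), and Trh, the gene of thyrotropin-releasing hormone, went from 137 to 762 FPKM (2.46). Trh made up most of the list's sum at both days. That sum was already 245 FPKM at day 0 in 1KO, with 143 and 769 FPKM at days 2 and 4. In WT it was 370, 137 and 271 FPKM, so a high level is not particular to differentiated cells. Sox17 and Cxcr4, further endoderm markers, were at 0.44 and 0.27 FPKM at day 4.

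Lists of other cell types that such cultures can hold were read beside these. Among 12 measured primitive endoderm genes 10 had a positive difference in 1KO, of which 2 passed, Foxa2 and Dab2, an endocytic adaptor, from 2.64 to 8.18 FPKM (1.34). The list's median was 0.21 in 1KO, 0.23 in WT and 0.63 in 1KO+1CI. Its summed level went from 25.5 to 42.3 FPKM in 1KO and from 16.8 to 27.9 FPKM in WT. The defining factors Gata4 (0.80 to 0.96 FPKM), Gata6 (1.18 to 0.79 FPKM) and Sox7 (0.23 to 0.51 FPKM) were near or under 1 FPKM at both days. Beyond Foxa2 and Dab2 no member passed, and the part of such cells in the other results was not tested. Of 13 measured neuroectoderm genes 7 were at 1 FPKM or more in 1KO. None rose and 2 fell, Gbx2 from 20.4 to 0.831 FPKM (-3.55) and Sox21 (-1.45). Of 17 measured feeder fibroblast genes 1 rose (Tagln, 1.35) and 1 fell (Postn, -1.30). Their summed level went from 146 to 257 FPKM, of which Tagln, an actin-binding protein, was 68.7 and 177 FPKM. The fibroblast collagen Col1a1 was at 76.0, 5.63 and 3.76 FPKM at days 0, 2 and 4 in 1KO. The collagen was thus lower at day 4 while the sum was higher, and the part of such cells in the other results was not tested. Of 7 measured blood and endothelial genes none rose, and Pecam1, which ESCs also express, fell by 2.57 on the log2 scale.

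Of 19 genes of epithelial junctions, 6 rose and 1 fell in 1KO, with a median of 0.52 in 1KO, 0.35 in WT and 0.56 in 1KO+1CI. The risers were the claudins Cldn3 (2.09), Cldn7 (1.87) and Cldn6, which went from 61.4 to 204 FPKM (1.72), with the desmosome gene Dsp (1.27) and the keratins Krt18 (1.26) and Krt19 (1.13). Grhl2, an epithelial transcription factor, fell by 1.25 on the log2 scale. Of 15 mesenchymal genes none rose, and Fn1, the gene of fibronectin, fell from 94.3 to 44.9 FPKM (-1.05), as did Tgfbi (-1.14).

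Of 23 measured germline genes none rose and 7 fell in 1KO, with a median of -0.66 in 1KO, -0.72 in 1KO+1CI and -0.19 in WT, where 5 rose and 2 fell. Hormad1, a protein of the meiotic chromosome axis, went from 9.35 to 0.67 FPKM in 1KO (-2.63) and from 2.53 to 0.53 FPKM in WT. Dazl, an RNA-binding protein of germ cells, went from 10.0 to 2.10 FPKM in 1KO (-1.83) and from 2.30 to 2.12 FPKM in WT (-0.08). Both were higher in 1KO than in WT at day 2, and the lines lay closer to each other at day 4. The other falls were Smc1b (-1.69), a meiotic cohesin subunit, Fkbp6 (-1.42), Syce1 (-1.41), Stk31 (-1.18) and Piwil2 (-1.08).

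Most imprinted genes lay between 1 and -1, as did most of all genes, of which 3.89% rose and 3.64% fell in 1KO. Of 16 paternally expressed genes 3 rose and none fell in 1KO: Nnat from 37.9 to 112 FPKM (1.54), Plagl1 from 4.69 to 11.7 FPKM (1.16) and Peg3 from 35.3 to 76.5 FPKM (1.09, against -0.12 in WT). Of 14 measured maternally expressed genes 4 rose and 1 fell. H19, a non-coding RNA, was at 516, 86.7 and 184 FPKM at days 0, 2 and 4 in 1KO (1.08 from day 2), and at 6.804 and 7.98 FPKM in WT at days 2 and 4. Asb4 (1.34), Gnas (1.16) and Calcr (1.03) were the other risers. Cdkn1c (chr7:143458339-143461050), the cell cycle inhibitor p57, went from 11.1 to 4.45 FPKM in 1KO (-1.15), from 8.86 to 2.49 FPKM in 1KO+1CI and from 21.8 to 42.7 FPKM in WT (0.94).

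Among genes for the repression of retroviruses 1 of 17 fell and among Polycomb genes 2 of 20, beside 3.64% of all genes, and none of either list rose. Zfp809, a zinc finger protein that targets proviruses, went from 27.4 to 10.7 FPKM in 1KO (-1.28) and from 21.9 to 9.43 FPKM in WT (-1.14). Trim28, the KAP1 corepressor, went from 548 to 384 FPKM (-0.51), and the histone methyltransferase gene Setdb1 had a difference of -0.44. Of the Polycomb genes Jarid2, a PRC2 cofactor, fell from 102 to 34.2 FPKM (-1.56), and Bmi1 fell by 1.06 on the log2 scale.

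In glycolysis 9 of 21 genes rose and 1 fell in 1KO, with a median of 0.56 in 1KO, 0.92 in WT and 0.05 in 1KO+1CI. Slc2a3, a glucose transporter, went from 99.7 to 481 FPKM in 1KO (2.26) and from 156 to 204 FPKM in WT (0.39). Ldha, the lactate dehydrogenase subunit, went from 664 to 1878 FPKM in 1KO (1.498) and from 222 to 1706 FPKM in WT (2.93), and Pgk1 from 358 to 1155 FPKM in 1KO (1.69). The others were Aldoc (1.90), Slc2a1 (1.52), Slc16a3 (1.37), Bnip3 (1.29), Tpi1 (1.04) and Gapdh. Gapdh (chr6:125161715-125166467) was at 168 FPKM in 1KO at day 4, and between 7.75 and 21.1 FPKM in the other 8 libraries, so that its difference of 3.07 rests on 1 library. Gapdh is known for many pseudogene copies, and whether they share its reads was not tested, so the value is uncertain.

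Several of the 12 largest rises lie outside the lists. Mogat2, an enzyme of triacylglycerol synthesis, went from 8 to 581 reads in 1KO, a ratio of 67.4 (34.0 to 157), and from 0.215 to 14.5 FPKM (3.67). Ppp4r4, a regulatory subunit of protein phosphatase 4, went from 1.80 to 31.1 FPKM (3.51). Psmb8 (chr17:34197721-34201454), a subunit of the immunoproteasome, went from 45 to 834 reads, a ratio of 17.2 (12.7 to 23.8), and from 1.76 to 30.2 FPKM (3.50, against 2.35 in WT). Of the 23 measured genes of viral sensing and interferon response, Isg15, a ubiquitin-like modifier, rose from 12 to 100 reads, a ratio of 7.73 (4.24 to 15.5), and Irf1 rose by 1.09, while the list's median was -0.04. Rtl8c, a gene derived from a retrotransposon, reached 13.9 FPKM in 1KO and 1.35 FPKM in WT, with differences of 3.13 and 0.40. Ism2, a secreted isthmin family protein, went from 8 to 443 reads in 1KO, a ratio of 51.4 (25.9 to 120), and was at 0.211 and 0.188 FPKM in WT. The list of 12 ended with Nefl (2.82), the light neurofilament subunit, and Slc39a8 (2.80), a zinc transporter.

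Among the 12 deepest falls outside the lists, Enox1 (chr14:77156763-77721760), a surface oxidase, went from 32.2 to 1.03 FPKM in 1KO (-4.03) and from 31.8 to 2.99 FPKM in WT (-3.04). Mymx, a peptide of muscle cell fusion, went from 12.8 to 0.108 FPKM in 1KO (-3.64) and from 21.5 to 0.463 FPKM in WT (-3.95). The junction adhesion molecule Jam2 (-3.40), the protease Capn3 (-3.30), the myosin light chain Mylpf (-3.26), Morc1 (-3.19), which represses transposons in male germ cells, and the steroid dehydrogenase Hsd17b14 (-3.15) followed in 1KO. In WT the differences of these 5 genes lay between -3.71 and -2.76. The deepest falls were thus found in WT as well, with all 7 genes past -1 in both lines.

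**Figure D3:**
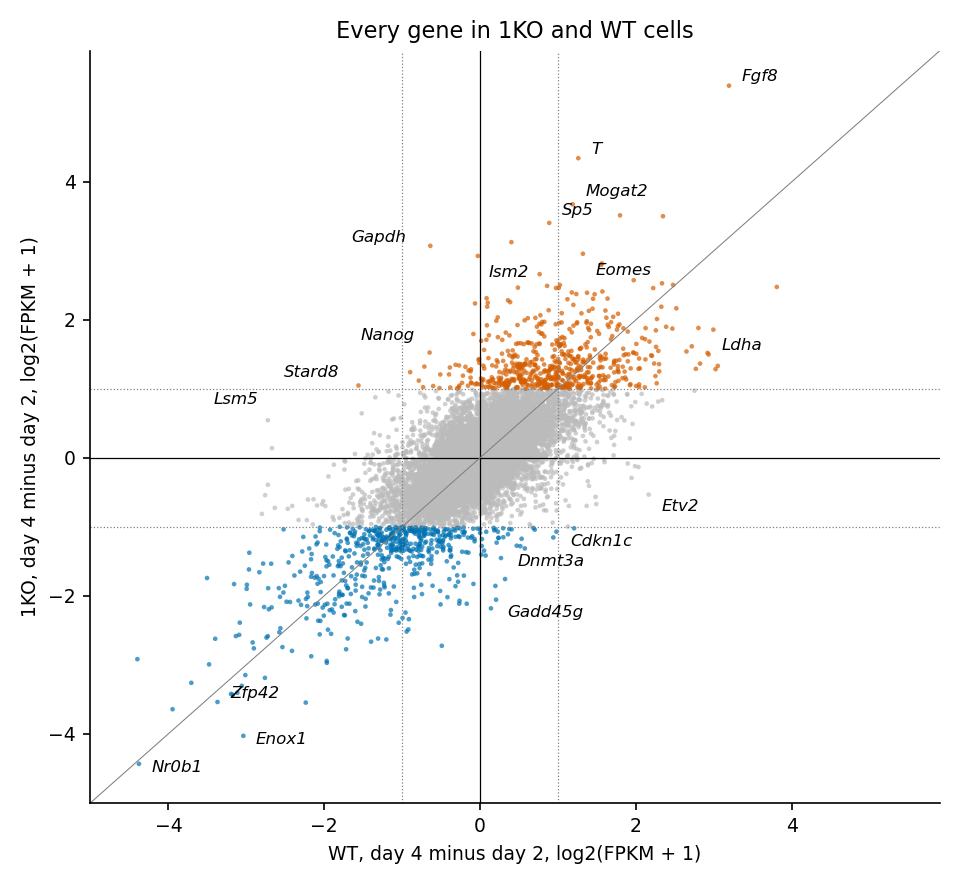
Each point is a gene, with its difference of log2(FPKM + 1), day 4 minus day 2, in WT (horizontal) and in 1KO (vertical). Orange points rose and blue points fell in 1KO, and the diagonal marks equal differences. Fgf8 and T lie above the diagonal, Nr0b1 lies on it, and Cdkn1c, Gadd45g and Dnmt3a lie below -1 in 1KO and above 0 in WT.

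Over all 15074 genes the difference in 1KO had a Pearson correlation of 0.71 and a Spearman correlation of 0.67 with that in WT, and of 0.81 and 0.74 with that in 1KO+1CI. These are descriptions across genes of libraries that are not shared between the lines but were grown and processed in the same way, and genes are not independent replicates. Of the genes that rose, 273 rose in both 1KO and WT, 46.5% of the 1KO rises and 47.3% of the WT rises. Of those that fell, 324 fell in both, 59.1% of the 1KO falls and 50.1% of the WT falls. With 1KO+1CI, 330 rises were shared (56.2% and 60.4%) and 342 falls (62.4% and 73.1%). The genes that rose in 1KO had a median difference of 0.96 in WT and 1.09 in 1KO+1CI, and those that fell had -1.14 in both. In WT 135 of the 587 rises and 86 of the 548 falls of 1KO lay within 0.5 of 0. Over all genes the quartiles of the WT difference were -0.29 and 0.30, so most genes lay there. Of all genes 3.83% rose and 4.29% fell in WT, and 3.62% and 3.1% did so in 1KO+1CI.

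The genes furthest from WT in the upward direction were Gapdh, Lsm5, T, Ism2 and the microRNA entry Mir1668. Lsm5, a subunit of a small ribonucleoprotein ring, went from 28.1 to 41.4 FPKM in 1KO (0.54) and from 33.5 to 4.22 FPKM in WT (-2.72), so that it is WT that moved. Mir1668 had 4 and 5 reads in 1KO at days 2 and 4, too few to order the days. In the downward direction they were Etv2, Gadd45g, Adap2, Tmem54 and Mir6516, the last with 19 and 1 reads. Gadd45g, a stress and growth arrest gene, went from 17.9 to 3.16 FPKM in 1KO (-2.18) and from 8.96 to 9.98 FPKM in WT (0.14). Adap2, an ARF GTPase activator, went from 198 to 24 reads in 1KO, from 5.94 to 0.668 FPKM (-2.06), with 0.21 in WT. Tmem54, a membrane protein gene, had -0.29 in 1KO and 1.94 in WT.

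**Figure D4:**
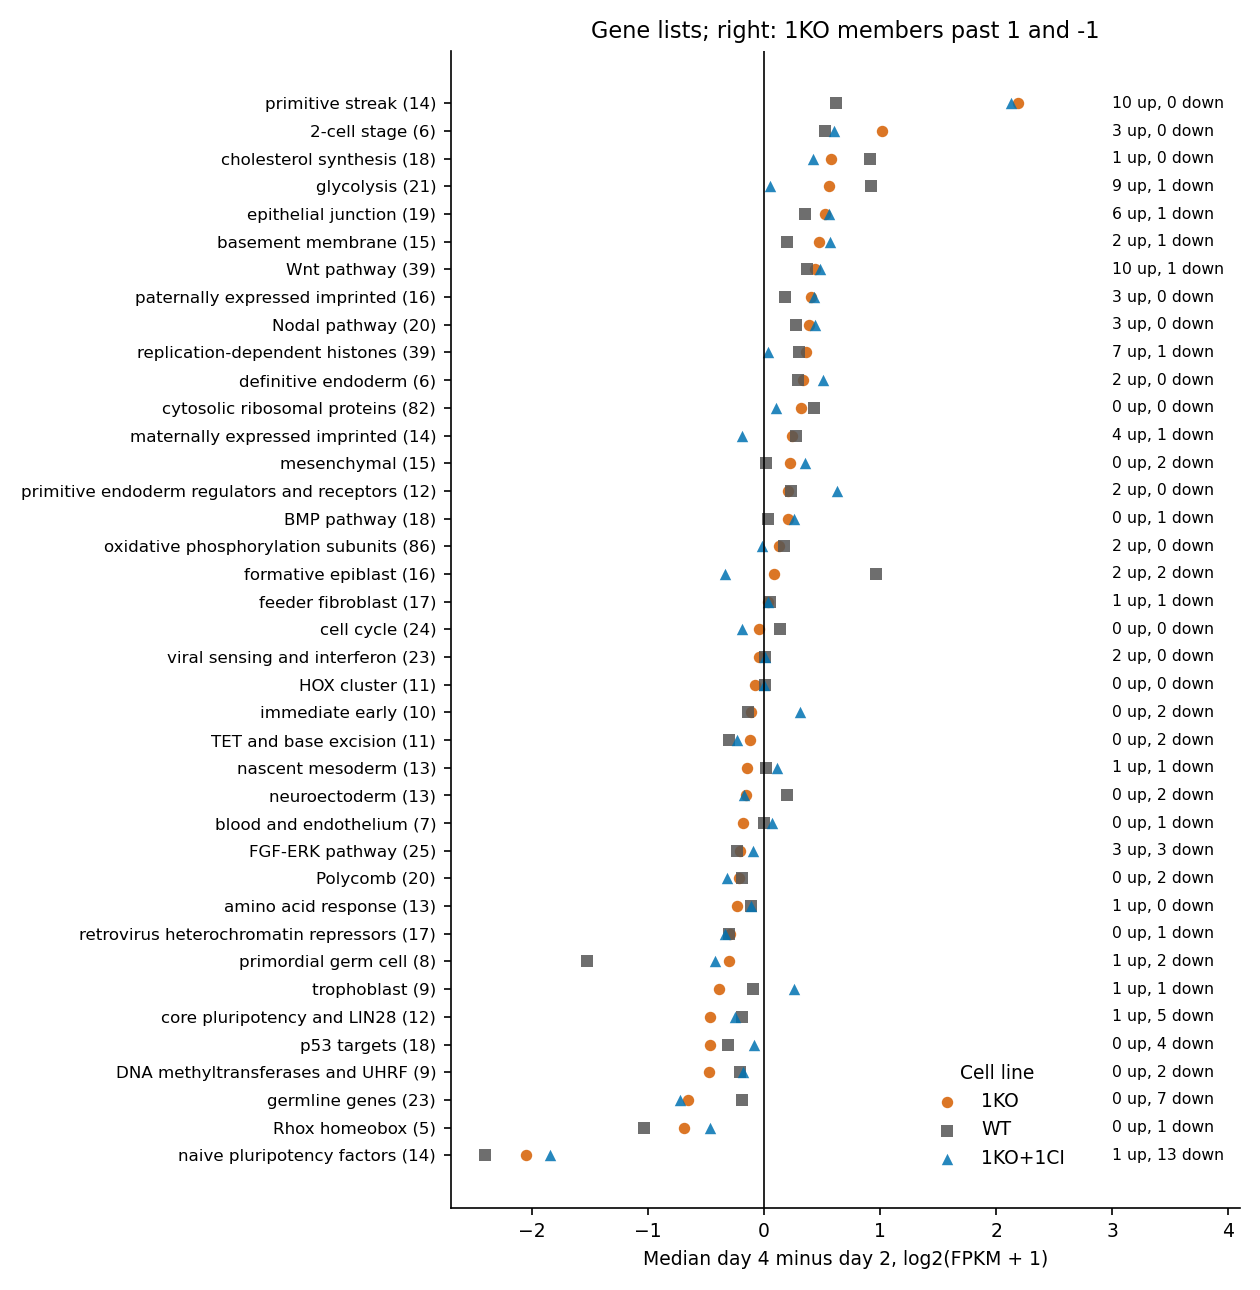
Median difference of log2(FPKM + 1), day 4 minus day 2, over the measured members of each gene list (their number in brackets), in 1KO (circles), WT (squares) and 1KO+1CI (triangles). The right margin counts the members past 1 and past -1 in 1KO. Primitive streak (2.19) is at the top and naive pluripotency (-2.05) at the bottom in 1KO.

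Repeat copies are stretches of transposons and simple sequence annotated in the genome. IAP elements are young retroviruses of the ERVK group, and MERVL, of the ERVL group, is known for its use at the 2-cell stage. Of 38385 copies, 2458 were higher by more than 1 in 1KO (6.4%) and 3565 lower (9.29%), with a median of -0.11. In WT 1389 were higher (3.62%) and 4311 lower (11.2%), and in 1KO+1CI 2227 (5.8%) and 3834 (9.99%). When values were rescaled by the median ratio over the repeat copies themselves, 3461 copies were higher and 2120 lower in 1KO, so the balance of rises and falls depends on the scaling.

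SINE copies, the largest class, held 817 of the rises (4.70% of their copies, beside 6.4% of all copies). LTR copies, which include the endogenous retroviruses, held 922 (11.96% of their copies). Simple repeats (278, or 10.7% of their copies) and low-complexity sequence (261, or 12.2%) held most of the others. Within the LTR class the rises lay in certain groups. Of 3142 ERVK copies 591 rose in 1KO (18.8%) and 201 fell, while in WT 48 rose and 215 fell. Of 1075 ERVL copies 204 rose in 1KO (18.98%), against 23 in WT. Of 688 ERV1 copies 50 rose in 1KO (7.27%, near the 6.4% of all copies) and 3 in WT, with 63 in 1KO+1CI. Most of the ERVK copies that rose were of IAP families. In the 22 families with IAP names, 526 of 666 copies rose in 1KO (79.0%), 1 in WT and 543 in 1KO+1CI. Of the other 2476 ERVK copies 65 rose in 1KO (2.63%) and 190 fell.

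The internal part of IAP, IAPEz-int, has 426 listed copies, whose mean was at 7.14, 4.70 and 17.1 FPKM at days 0, 2 and 4 in 1KO. In WT the mean was 0.792 FPKM at day 2 and 0.563 FPKM at day 4, and in 1KO+1CI it was 4.62 and 23.4 FPKM. All 426 copies were higher at day 4 than at day 2 in 1KO, 415 of them by more than 1. The copies' differences ran from 0.12 to 2.26 with a median of 1.66, and 1.10 to 1.98 between the 5th and 95th percentiles. How reads that map to many copies were shared is not given in the sources used here, so the copies cannot be read as separate measurements. The long terminal repeats that flank it moved alike, with IAPLTR1_Mm going from 5.12 to 17.3 FPKM over 76 copies (1.58) and IAPLTR1a_Mm from 1.37 to 5.32 FPKM over 25 copies (1.41). In WT these differences were -0.21 and 0.04.

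Of 371 families with 10 or more copies 7 rose in 1KO (1.89%) and 5 fell (1.35%), by their mean FPKM. In WT 1 rose (0.27%) and 4 fell (1.08%), and in 1KO+1CI 9 rose (2.43%) and 3 fell (0.809%). Counting families of fewer copies as well, 23 of 1042 rose (2.21%) and 38 fell (3.65%) in 1KO. Besides the 3 IAP families, those that rose among the 371 were RMER16-int, MERVL-int, RLTR1B-int and LTRIS2. MERVL-int was at 1.99, 0.760 and 3.23 FPKM at days 0, 2 and 4 in 1KO over 169 copies (1.27 from day 2, 119 copies up), and went from 1.08 to 1.78 FPKM in WT (0.42). MT2_Mm, its long terminal repeat, had a difference of 0.88 with 55 of 145 copies up. RLTR1B-int went from 14.3 to 34.3 FPKM over 49 copies (1.21) and LTRIS2 from 3.84 to 8.93 FPKM over 51 copies (1.04). Their counterparts in WT were -0.16 and -0.16. By the median over the copies' levels LTRIS2 had 0.69 and no longer passed, nor did RMER16-int (0.49). RMER16-int, at 4.06 and 11.5 FPKM (1.30), had 14 of 48 copies past 1, and the median of its copies' differences was 0.51. MMETn-int, a further ERVK family with high levels in all lines, was at 64.1 and 66.0 FPKM in 1KO (0.04).

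**Figure D5:**
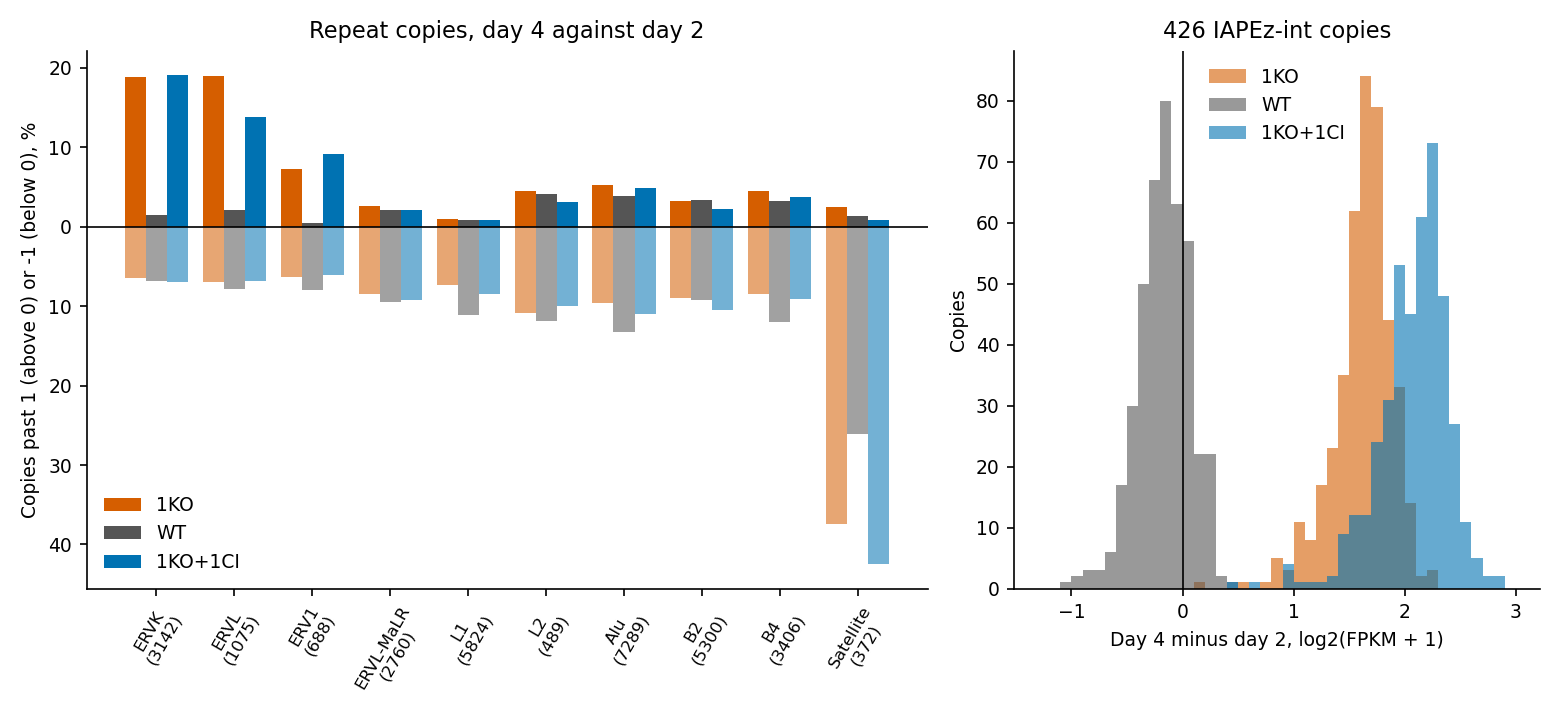
Left, share of copies past 1 (above 0) and past -1 (below 0) in each repeat group, with the number of copies in brackets, in 1KO, WT and 1KO+1CI. Right, histogram of the difference of log2(FPKM + 1) for the 426 IAPEz-int copies, which lie above 0 in 1KO with a median of 1.66.

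Of the falls SINE copies held 1618, LTR copies 555 and LINE copies 498. These are 9.31%, 7.20% and 7.69% of the copies of each class, beside 9.29% of all copies. By share of copies, satellites stood highest among the repeat classes. Of 372 satellite copies 139 fell in 1KO (37.4%), 97 in WT and 158 in 1KO+1CI. Most were of MMSAT4, with a mean of 25.9, 39.5 and 16.2 FPKM at days 0, 2 and 4 in 1KO (-1.23 from day 2) and a difference of -0.79 in WT. RLTR9E, an ERVK long terminal repeat active in ESCs, went from 7.43 to 2.65 FPKM over 42 copies in 1KO (-1.21), with -0.34 in WT and -1.24 in 1KO+1CI. RLTR20B1 (-1.28), BGLII (-1.06) and RLTR17 (-1.01) were the other families past -1, the last 2 with a median over their copies' differences of -0.40 and -0.54. The means of the young LINE-1 families L1Md_A, L1Md_T and L1Md_Gf were higher at day 2 than at day 0 and lower again at day 4 in all 3 lines. Repeats in general shared this course. The median ratio over all repeat copies was 0.918, 1.19 and 0.978 at days 0, 2 and 4 in 1KO. It was 1.03, 1.19 and 0.936 in WT, and 1.02, 1.19 and 0.945 in 1KO+1CI. The mean of 997 L1Md_A copies was 0.423, 1.15 and 0.291 FPKM at days 0, 2 and 4 in 1KO (-0.73 from day 2), with 177 copies down, none up, and -0.83 in WT. L1Md_T had -0.54 over 1477 copies, with 68 down. Of 58 L1Md_Gf copies none was higher at day 4.

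Across repeat copies, the difference in 1KO had a Pearson correlation of 0.31 with WT and 0.45 with 1KO+1CI, and a Spearman correlation of 0.29 and 0.36, with sparse and shared reads behind many copies. Copies up in both 1KO and WT were 285, which is 11.6% of the 1KO rises and 20.5% of the WT rises. With 1KO+1CI 1029 were shared, 41.9% and 46.2%. Of all copies 6.4% rose in 1KO, 3.62% in WT and 5.8% in 1KO+1CI.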

How the data were processed

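The authors sequenced oligo(dT)-selected RNA from 9 cultures (3 lines at days 0, 2 and 4) and deposited FPKM values per gene and per repeat copy. The submitters' processing notes name Trim Galore, HISAT2, SAMtools, HOMER and the mouse build mm10, with versions not given in the sources used here. Of 15095 entries in the gene table, 20 that hold a date and 1 named 0 were left out, leaving 15074 genes. Differences of log2(FPKM + 1) were computed in Python 3.11.15 with numpy 2.4.6, pandas 2.3.3 and scipy 1.17.1, and drawn with matplotlib 3.10.9. The scripts were tested on simulated data. The deposited values hold no 0 in any library, and no further filter on low values was applied to the counts of genes and copies. List medians are given over every measured member. The planned medians over members of at least 1 FPKM at day 2 or day 4 of 1KO stand among the alternatives, since that floor admits members by their 1KO level. Reads were recovered from the steps of the values where these allowed it. Whether a step is 1 read or a read pair is not known. Positions of genes are from GENCODE M21 (GRCm38), and promoters from RefSeq (GRCm38.p6), which had entries for 11638 genes. That is 77.2% of all, under the 80% set for a comparison of CpG or GC content, and none was made. Named genes were the 12 largest rises, the 12 deepest falls, the 5 highest and 5 lowest relative to WT, members of the lists of pluripotency, signalling, germ layers and DNA methylation, and the highest and lowest member of each other list. Members of other lists that passed 1 or -1 were named after their values were seen. The members and lists were chosen with earlier results of these data known. The alternatives were another pseudocount, filter, scaling or summary of a list or family.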

Additional observations from a re-analysis of the deposited data

Results flagged for a closer look

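With 1 library per line and day, 13 of the values screened moved in opposite directions in 1KO and WT from day 2 to day 4. For none of them was the difference between the lines tested. The screen was not complete. Its rule with 0.5 covered only members of the lists and genes named by rank, and single repeat copies were left out. Of all 38385 copies, 110 passed 1 in 1KO and -1 in WT, and 72 did the reverse. Values are differences of log2(FPKM + 1), given for 1KO and then for WT, and were kept where they passed 1 or -1 in 1KO and WT lay past 0.5 the other way, where both passed, for families, where they passed in 1KO and WT had the opposite sign, or, for medians of lists over members of at least 1 FPKM in 1KO, where the signs were opposite and the medians over 0.5 apart. Among repeat families they were IAPEz-int (1.66 and -0.20), IAPLTR1_Mm (1.58 and -0.21), RMER16-int (1.30 and -0.16), RLTR1B-int (1.21 and -0.16) and LTRIS2 (1.04 and -0.16). Among genes Nanog (1.53 and -0.65), Lefty2 (1.01 and -0.52) and Cdkn1c (-1.15 and 0.94) are described above. Gapdh (3.07 and -0.64) rests on 1 library. Stard8, on chromosome X, had 1.05 and -1.56, from 136 to 423 reads in 1KO. Mir7068 had -1.02 and 1.21, on 11 and 5 reads in 1KO. The histone gene Hist1h2ak, of a family with near-identical copies, had 1.04 and -0.60, from 0.089 to 1.24 FPKM in 1KO. The median over 5 trophoblast genes was -0.43 and 0.15, with Krt7 up and Ascl2 down in 1KO, and over all 9 measured members it was -0.39 and -0.10.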

How the results depend on the processing

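No paired analysis was possible because 1KO has 1 library at each day, and for the same reason no replicate could be left out. Pairing the days over the 3 lines would test what the lines share and was not run. Signs were followed for 39 lists, 14 families and 33 genes named by rank or by opposite calls, not for every called gene or copy. None of these past 1 or -1 changed sign. For genes this was fixed in advance, since another pseudocount keeps the sign and the rescalings shifted values by far less than 1. With a pseudocount of 0.1 the genes higher in 1KO were 1324 and those lower 1118, and with 0.01 they were 1587 and 1342, against 587 and 548, since a smaller pseudocount lets low genes pass. Repeat copies higher were 5194 and 5498, and lower 9088 and 10365, with 0.1 and 0.01. Families lower were 13 and 15. Rescaled to TPM, 756 genes were higher and 898 lower. Scaling by the median ratio over genes gave 586 and 549 genes, and over repeat copies 2120 copies were lower. Counting every family gave 23 higher and 38 lower. Over members of at least 1 FPKM in 1KO, 12 of 39 lists had a median over 0.5 in 1KO and 5 under -0.5. Over every measured member, an alternative chosen after seeing the data and the medians printed above, these were 5 and 3. The primitive streak median over the 13 members of at least 1 FPKM was 2.28. By the mean over members 8 lists were under -0.5, and in TPM 9. List medians turned sign, without being past 1, for formative epiblast in TPM (-0.01), for FGF-ERK (0.03), nascent mesoderm (-0.00) and interferon (0.12) by the mean, and for nascent mesoderm (-0.14), feeder fibroblast (0.03) and HOX (-0.08) over every measured member. BGLII had -0.06 by the median of its copies' levels. Without the copy of highest FPKM, also chosen after seeing the data, 6 families were higher and 4 lower. Copies higher outside IAP families, a further alternative of that kind, were 1932. Among list medians 21 of 234 alternative values moved, among named genes 12 of 132, and among families 12 of 84, leaving out the floor of 1 FPKM, which cannot move a difference. Depth limits genes with few reads, and 1 library per condition leaves the spread between cultures unknown.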

Other observations

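By position, chromosome X had the highest share of genes that rose in 1KO from day 2 to day 4. Of its 546 genes 42 rose (7.69%) and 19 fell (3.48%), beside 3.89% and 3.64% of all genes. In WT 5.31% of the genes on X rose, beside 3.83% of all genes, and chromosome 14 stood above X with 5.37%. In 1KO+1CI 8.06% of the genes on X rose, beside 3.62% of all genes. Fndc3c1, a fibronectin type III gene, went from 4.20 to 28.5 FPKM in 1KO (2.51, and 2.48 in WT), while Clcn5, a chloride transporter, had a difference of 1.70 in 1KO and 0.02 in WT, and Tmem185a 2.02 and 0.61. Apart from chromosome Y, where none of 5 genes rose, the lowest share was on chromosome 19, with 9 of 492 genes (1.83%), and chromosome 17 had 43 of 749 (5.74%). The genes of a chromosome share a library, and no test of these shares was made.

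Of 18 p53 target genes none rose and 4 fell in 1KO, with a median of -0.46 beside -0.31 in WT, where 3 fell. For this list and those below, 3.89% of all genes rose and 3.64% fell in 1KO. Gdf15, a stress-induced cytokine, went from 5.80 to 0.772 FPKM (-1.94), Mdm2, the ubiquitin ligase of p53, from 91.1 to 39.7 FPKM (-1.18), and Sesn2 (-1.23) and Eda2r (22.2 to 9.13 FPKM) fell too. Cdkn1a, the p53-induced cell cycle inhibitor p21, had a difference of -0.13. Of 18 cholesterol synthesis genes all 18 were higher at day 4 in 1KO, yet Msmo1 alone passed 1 (1.01), while 9 passed in WT. The medians were 0.58 in 1KO, 0.91 in WT and 0.42 in 1KO+1CI.

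Of 6 measured genes of the 2-cell stage, 3 rose in 1KO. They were Zscan4d, from 8 to 142 reads (1.80), Zscan4c, from 9 to 109 reads (1.39), and Tcstv3 (1.10), all with near-identical copies that can share reads. In WT Zscan4d had 0.78, and all 6 genes were higher at day 4 in both 1KO and WT. The sum over the 6 was 10.8, 0.817 and 8.93 FPKM at days 0, 2 and 4 in 1KO. In WT that sum was 10.3, 3.62 and 8.03 FPKM, so neither line at day 4 was above its day 0. Rhox1, an X-linked homeobox gene, fell from 70 to 13 reads in 1KO (-1.54), and 4 other Rhox genes did not pass. None of 24 cell cycle genes passed in either direction, with a median of -0.04. None of 82 cytosolic ribosomal protein genes passed either, and their median was 0.32. Of 86 oxidative phosphorylation genes 2 rose (Ndufa4l2 and Cox4i2), beside 3.89% of all genes, with a median of 0.13. Of 39 replication-dependent histone genes 7 rose and 1 fell, and 13 were under 1 FPKM at both days in 1KO. The RNA was selected with oligo(dT), so histone RNA without a poly(A) tail was selected against. Of 15 basement membrane genes Serpinh1 (1.43), a collagen chaperone, and P4ha1 (1.03), a collagen hydroxylase, rose and Nid1 (-1.12) fell. Of 13 amino acid response genes Ddit4 rose (1.22), of 10 immediate early genes Egr1 and Fosl1 fell, and of 8 primordial germ cell genes Dnd1 rose (1.11) and Dppa3 (-1.69) and Prdm14 fell. Of 11 HOX genes 1 reached 1 FPKM in 1KO and none passed.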
